A study of Mus musculus with 6 samples.

Results

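At 321 sites of the mouse genome, an open-chromatin peak of the posterior second heart field (pSHF) overlapped one of the atria (HT). The highest point lay at a different place in each, and the overlap could be as small as 1 bp. The 321 were chosen by summit position, from the 22574 pairs (1.42%) in which 1 pSHF peak and 1 HT peak overlapped by at least 1 bp and overlapped no other peak of the opposite list. A pair was called shifted where every pSHF summit lay more than 200 bp from every HT summit. The lists hold 44018 pSHF and 49267 HT peaks in all. Because summit positions selected the pairs, their distances are a description and support nothing further.

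The assay was ATAC-seq, in which the transposase Tn5 cuts open DNA and leaves sequencing adapters there. The pSHF is the mesodermal progenitor field behind the forming heart, and HT is the label given to the embryonic atria. All embryos were wild type (WT), of the outbred strain CD1 and at age E10.0, and pieces of each tissue were pooled and dissociated with TrypLE before transposition. Each tissue has 3 samples but 1 peak list, so no replicate spread, test between tissues or p-value can be given. All intervals below are exact Clopper-Pearson 95% intervals and cover counting error over pairs only. Where a count is 0, the share it allows is given instead as 3 counts of the total, which is not such an interval.

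A summit is the base at which a peak caller finds the highest pile-up of reads within an interval. In ATAC-seq it usually marks the most exposed DNA of an element, between or beside nucleosomes, where transcription factors can bind. A regulatory element can have several such places, and neighbouring elements can merge into 1 interval when both are open. Promoters, enhancers and insulators all give such peaks, and the assay alone does not say which is which.

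As a check of the dissection, the labelled tissues were set against peaks within 1 kb of an end of a marker gene. Of 5 cardiomyocyte markers, 4 had such a peak in HT and 2 in pSHF, and *Nppa* and *Myl7* had one in HT alone. Of 3 blood markers, 2 had one in HT and 0 in pSHF. All 4 endoderm markers had one in pSHF and 3 in HT, and 3 and 2 of 3 epicardial markers had one in HT and pSHF. Of 4 endothelial markers 2 had one in each list, of 3 neural markers 2 and of 3 somite markers 1. *Myh6*, a cardiac myosin gene, and the endothelial markers *Cdh5* and *Pecam1* had none in either list. A peak is no measure of expression.

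Promoters show most directly what a shift of this size means along the DNA, because a summit can be placed against the start site. The sequences below are RefSeq promoter windows of GRCm38.p6 (the coordinates of mm10), from 250 bases before the start through 30 bases from the start on, 5′ to 3′ along the gene. Capitals mark the 11 bases centred on each summit that falls in the window. They are reference sequences and not those of the CD1 embryos. The first 4 are the protein-coding promoters in which the 11 bases at both summits of a shifted pair fit inside the window. *Prkar1b* (pSHF at -249 bp, HT at -19 bp) and *Myo3a* (-200 and 27 bp) also had both summits inside, but 1 too near its edge. The 4 were chosen after the positions were seen.
Ass1, chr2:31470020-31470299, plus strand: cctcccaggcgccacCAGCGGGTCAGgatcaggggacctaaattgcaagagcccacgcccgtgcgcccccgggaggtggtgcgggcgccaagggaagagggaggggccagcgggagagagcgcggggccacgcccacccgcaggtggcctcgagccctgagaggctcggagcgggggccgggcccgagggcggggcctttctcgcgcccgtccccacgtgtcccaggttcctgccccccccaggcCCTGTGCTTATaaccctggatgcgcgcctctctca
Aff2, chrX:69360081-69360360, plus strand: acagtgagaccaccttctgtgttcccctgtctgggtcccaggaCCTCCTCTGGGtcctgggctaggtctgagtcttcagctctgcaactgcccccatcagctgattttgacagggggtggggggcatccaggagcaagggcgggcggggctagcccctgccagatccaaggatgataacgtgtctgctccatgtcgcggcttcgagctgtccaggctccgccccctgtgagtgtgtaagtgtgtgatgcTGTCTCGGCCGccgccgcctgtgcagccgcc
Ptpn5, chr7:47132569-47132848, minus strand: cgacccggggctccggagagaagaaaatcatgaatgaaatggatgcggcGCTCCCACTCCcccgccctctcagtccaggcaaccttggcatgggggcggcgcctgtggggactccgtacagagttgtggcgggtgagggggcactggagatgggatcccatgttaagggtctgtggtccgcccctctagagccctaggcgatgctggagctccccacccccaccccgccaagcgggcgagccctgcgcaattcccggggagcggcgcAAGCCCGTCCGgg
Aox3, chr1:58112886-58113165, plus strand: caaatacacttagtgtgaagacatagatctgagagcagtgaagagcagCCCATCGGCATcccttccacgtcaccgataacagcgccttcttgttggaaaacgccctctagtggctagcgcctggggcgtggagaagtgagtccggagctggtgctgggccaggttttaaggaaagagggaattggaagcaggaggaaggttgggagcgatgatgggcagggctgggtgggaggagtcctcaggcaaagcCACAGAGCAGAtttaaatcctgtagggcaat
The last 3 hold 1 summit each and belong to genes of heart, Wnt signaling and blood that return below.
Hopx, chr5:77095238-77095517, minus strand: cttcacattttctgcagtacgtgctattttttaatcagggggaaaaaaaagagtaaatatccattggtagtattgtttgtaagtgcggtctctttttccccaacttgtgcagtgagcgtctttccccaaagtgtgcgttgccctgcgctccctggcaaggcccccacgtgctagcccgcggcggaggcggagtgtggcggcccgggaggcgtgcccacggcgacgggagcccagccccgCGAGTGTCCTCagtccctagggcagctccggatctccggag
Sfrp5, chr19:42202223-42202502, minus strand: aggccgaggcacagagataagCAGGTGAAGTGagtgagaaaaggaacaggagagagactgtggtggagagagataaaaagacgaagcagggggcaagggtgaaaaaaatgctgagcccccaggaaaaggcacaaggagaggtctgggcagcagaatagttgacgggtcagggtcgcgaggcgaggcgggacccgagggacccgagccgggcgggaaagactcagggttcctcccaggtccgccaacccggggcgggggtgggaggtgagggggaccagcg
Hba-x, chr11:32276350-32276629, plus strand: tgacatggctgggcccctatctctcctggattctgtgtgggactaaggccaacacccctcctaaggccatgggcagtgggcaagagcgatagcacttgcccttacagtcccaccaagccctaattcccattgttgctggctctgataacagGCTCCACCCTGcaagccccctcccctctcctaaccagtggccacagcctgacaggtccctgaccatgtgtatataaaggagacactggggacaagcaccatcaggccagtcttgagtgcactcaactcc

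At *Ass1*, encoding argininosuccinate synthase of the urea cycle, the pSHF summit fell on the start site itself (0 bp) and the HT summit at -230 bp. At *Aff2* they fell at 4 and -202 bp, and at *Ptpn5*, a tyrosine phosphatase gene, at 22 and -196 bp. In these 3 promoters the 5′ capitals are therefore the HT summit. *Aox3*, an aldehyde oxidase gene, had the opposite order, with pSHF at -197 bp and HT at 4 bp. Heights were close in these 4 pairs, with fold enrichments of 4.91 in pSHF and 5.52 in HT at *Ass1*, 6.003 and 4.74 at *Aff2*, 4.15 and 3.68 at *Ptpn5* and 4.85 and 4.39 at *Aox3*. Fold enrichment is the pile-up at the summit over the caller's local background, as given in the authors' lists.

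The printed windows were searched for the letters of known factor motifs. On both strands the search covered letters bound by GATA factors (AGATAA, in 10.7% of 32851 RefSeq windows of the same length), T-box (GGTGTGA, 3.74%), forkhead (TGTTTAC, 3.49%), GLI (GACCACCCA, 0.240%), TEAD (GGAATG, 13.9%), NKX2 (CACTTAA, 2.25%) and the E-box CAGCTG (14.9%). It also covered a MEF2 motif (0.149%), a CTCF motif (0.0122%) and KLF/SP (GGGGCGGGG, 11.2%). *Sfrp5* held AGATAA at -236 and -180 bp and GGGGCGGGG at -2 bp, and *Aff2* held CAGCTG at -153 bp. No match lay in the other windows printed, which says only that these letters are not there. None of the matches overlapped another. The share of G and C ran from 54.6% at *Aox3* to 73.6% at *Ass1*, against a median of 52.5% over all windows.

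The shifts were mostly just over the threshold. The median was 233 bp (quartiles 215 and 272) and the largest 519 bp. Between the strongest summits of a shifted pair, the largest distance was 677 bp. Pairs became fewer with every 25 bp step from 100 to 400 bp, with 207 pairs over 175 and up to 200 bp, 135 over 200 and up to 225 bp and 67 over 225 and up to 250 bp. Only 53 shifts were over 300 bp, 9 over 400 bp and 2 over 500 bp. The shifted pairs are thus the end of a continuous distribution, whose median among the pairs without a shift was 50 bp, and no gap sets them apart.

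**Figure D1:**
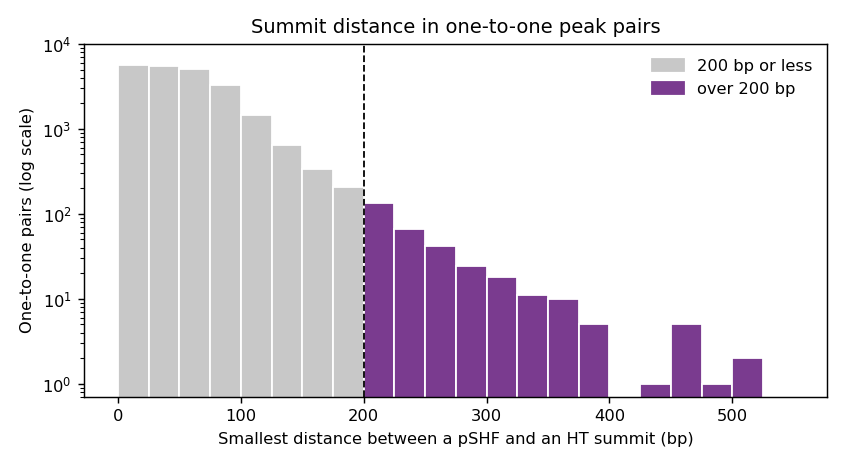
Number of one-to-one pairs (log scale) by the smallest distance between a pSHF and an HT summit, in bins of 25 bp; the dashed line is the 200 bp threshold. Counts fall from 207 in the bin that ends at 200 bp to 135 in the next, with no gap at the threshold.

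At the threshold itself, 8 pairs had a shift 1 bp over it and 5 had exactly 200 bp. Just inside were pairs nearest *Asb7* (fold enrichment 5.80 in pSHF and 5.02 in HT), *Mgat5b* (5.39 and 4.93) and *Fam204a* (4.85 and 6.03). Just outside, at 200 bp, were pairs nearest *Mboat4* (5.96 and 7.05), *Pde10a* (4.74 and 5.24) and *Sema6d* (5.18 and 4.14). These 6 pairs differ by 1 bp in the distance that chose them.

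Shifted pairs fell into 3 classes by where the summit of highest fold enrichment lay in each tissue. Neither strongest summit lay inside the other tissue's interval in 162 of 321 pairs (50.5%, 44.9 to 56.1), against 5.18% of all one-to-one pairs. Exactly 1 did in 135 pairs (42.1%, 36.6 to 47.7), and both did in 24 (7.48%, 4.85 to 10.9). This share follows partly from the rule, since far summits leave a narrow interval easily. It also depended on the overlap asked for: with 50% of both intervals overlapping, 92 pairs were shifted and 14.1% had neither summit inside.

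The 162 pairs with neither summit inside ranged from intervals that met at an edge to intervals that overlapped over most of the narrower one. Their overlap had a median of 55.5 bp (quartiles 27 and 88.3, highest 254), with intervals of 223 bp in pSHF and 262.5 bp in HT at the median. Over all 321 pairs the overlap was under 50 bp in 75 and at most 10 bp in 16. At *Hopx*, a gene for a small homeodomain protein of the developing heart, the pSHF interval chr5:77094634-77094832 and the HT interval chr5:77094831-77095376 shared only 2 bp. Its HT summit of highest fold enrichment lay 6 bp before a start site (-6 bp in the window printed above) and its pSHF summit 566 bp after it. The fold enrichment was 6.34 in HT and 4.08 in pSHF. A weaker HT summit made the smallest distance 398 bp, while the strongest summits were 572 bp apart.

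Where 1 summit lay inside the other interval, the wider interval was nearly always the one that held both. In 61 pairs the pSHF summit alone lay inside the HT interval, and HT was wider in 59 of them. In 74 pairs the HT summit alone lay inside the pSHF interval, and HT was wider in 2. HT had the higher fold enrichment in 45 of the 61 (73.8%, 60.9 to 84.2) and in 31 of the 74 (41.9%, 30.5 to 53.9). *Arf5*, a small GTPase gene of membrane traffic, had the largest shift of all, 519 bp, in this class. Its summits lay 374 bp (pSHF) and 893 bp (HT) after the start site, in intervals of 367 bp and 664 bp, with fold enrichments of 3.25 and 4.99.

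The 24 pairs with both summits inside shared a wide open interval in which the highest point differed. Their median shift was 213 bp, the largest 272 bp, and their intervals were 424 bp in pSHF and 422.5 bp in HT at the median. *Dact3*, a member of the Dapper family that acts in Wnt signaling, had the highest smaller fold enrichment of all shifted pairs. Its fold enrichment was 8.12 in pSHF and 11.7 in HT, with summits at -282 and -72 bp from the start site and an overlap of 620 bp. *Tmod2*, encoding a tropomodulin that caps actin filaments, had 9.09 in pSHF and 6.03 in HT, with summits 193 and 397 bp after the start.

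**Figure D2:**
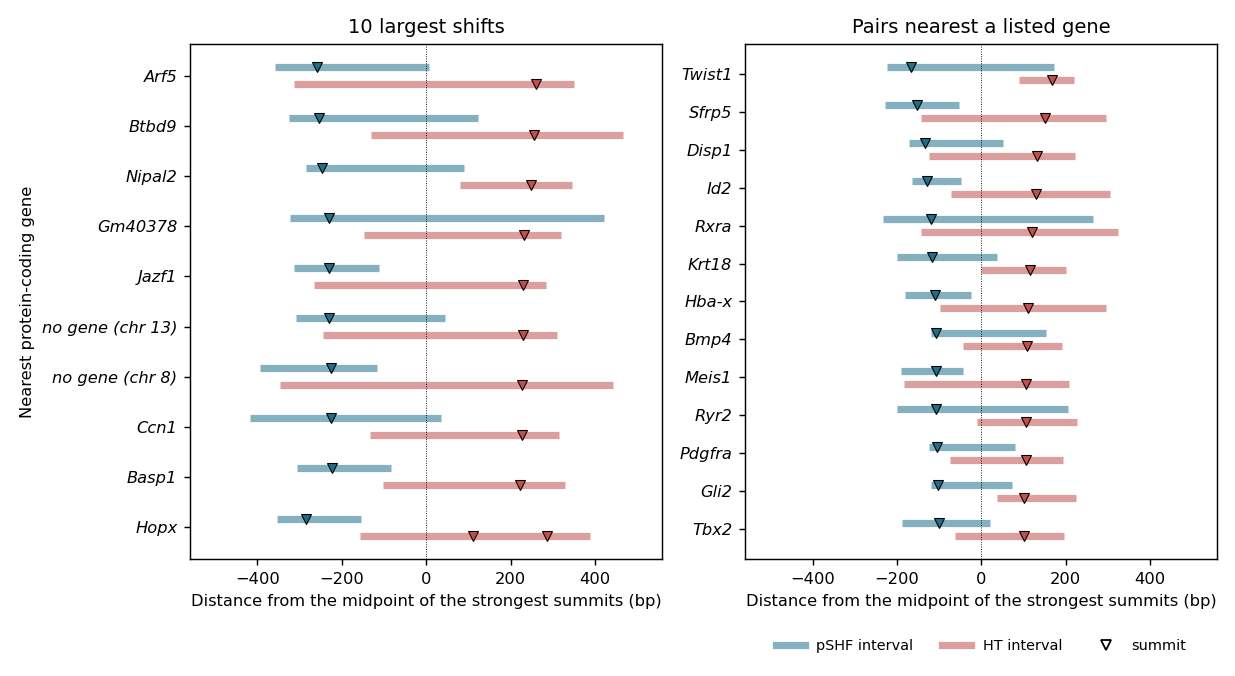
Intervals (bars) and summits (triangles) of pSHF and HT in bp from the midpoint between the strongest summits, drawn with the pSHF summit on the left, for the 10 largest shifts (left panel) and the pairs nearest a listed gene that the text names (right panel). At Hopx and Nipal2 the bars meet only at their edges, while at Rxra both summits lie inside both bars.

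The other pairs among the 10 largest shifts were spread over gene bodies, gene ends and intergenic DNA. *Btbd9* had a shift of 510 bp inside the gene (fold enrichment 5.36 in pSHF and 6.40 in HT), and *Nipal2*, a magnesium transporter family gene, 495 bp at a gene end (4.69 and 4.55). *Jazf1*, a zinc finger gene, had 459 bp, with the pSHF summit 28 bp before the start and the HT summit 431 bp after it (5.27 and 4.74). *Ccn1*, encoding a matrix-associated signaling protein, was the nearest gene to a shift of 452 bp that lay 35206 bp from it (4.89 and 4.12). *Basp1* had 446 bp (3.48 and 5.97) and *Gm40378* 463 bp (4.49 and 7.22). The remaining pairs, with 459 bp at chr13:44501736-44502355 (5.92 and 6.90) and 452 bp at chr8:8488597-8489436 (4.12 and 5.94), had no protein-coding gene within 100 kb.

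Along the chromosome, the HT summit was at the higher coordinate in 154 of 321 pairs (48.0%, 42.4 to 53.6). Relative to genes, the pSHF summit was nearer to an end of a protein-coding gene in 160 of 295 pairs (54.2%, 48.4 to 60.0), against 47.1% (46.4 to 47.8) of pairs without a shift. With 50% reciprocal overlap this share was 43.7%, after dropping lines whose −log10 q was under 5 it was 44.7%, and by strongest summits 45.7%, so the excess on the pSHF side was not kept under those settings. The share was 54.7% with an overlap of at least 50 bp, 60.9% for shifts over 300 bp and 47.2% over 100 bp.

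Shifted pairs were low in both tissues. The median fold enrichment was 4.59 in pSHF (quartiles 3.79 and 5.19) and 4.93 in HT (4.12 and 5.96), against 5.69 and 7.002 in pairs without a shift. From the authors' fold enrichment and p-value, the pile-up at the summit had a median of 10 reads in both tissues, against 15 in pSHF and 18 in HT without a shift. In 45 of 321 pairs (14.0%, 10.4 to 18.3) both summits reached a −log10 q of 5, against 56.2% (55.6 to 56.9) of the others. Few reads thus stand behind each summit position, and their part in the shifts was not tested.

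The share of shifted pairs was smaller in each higher bin of the weaker peak's fold enrichment. Of pairs whose smaller fold enrichment was under 4, 3.08% (2.59 to 3.63) were shifted, and of those from 4 to under 5, 2.35% (1.98 to 2.78). From 5 to under 6 it was 1.09% (0.770 to 1.49), and from 6 to under 8 it was 0.187% (0.0807 to 0.368). At 8 and over, *Dact3* was the only shifted pair among 4526 (0.0221%, 0.000559 to 0.123). The median distance between summits over all pairs went from 60 bp under 4 to 39 bp at 8 and over. The number of summits per interval, on which the rule also acts, was not held equal across these bins.

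The pSHF intervals of shifted pairs were 263 bp wide at the median (quartiles 170 and 376) and the HT intervals 280 bp (202 and 380), against 345 and 330 bp without a shift. The union of both intervals was 438 bp at the median (quartiles 378 and 500) against 415 bp (quartiles 290 and 642). Of pairs with a union under 500 bp, 1.74% (1.53 to 1.97) were shifted, and from 500 to under 750 bp 1.39% (1.09 to 1.75). From 750 to under 1000 bp 8 of 2671 were (0.2995%, 0.129 to 0.589), and at 1000 bp and over 0 of 871, which allows a share of up to 0.344%. Of pSHF intervals without a shift 37.3% had more than 1 summit, and of the 321 shifted ones 8 (2.49%, 1.08 to 4.85). As the rule asks that no summit be near, several summits in an interval make a shift harder to reach.

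**Figure D3:**
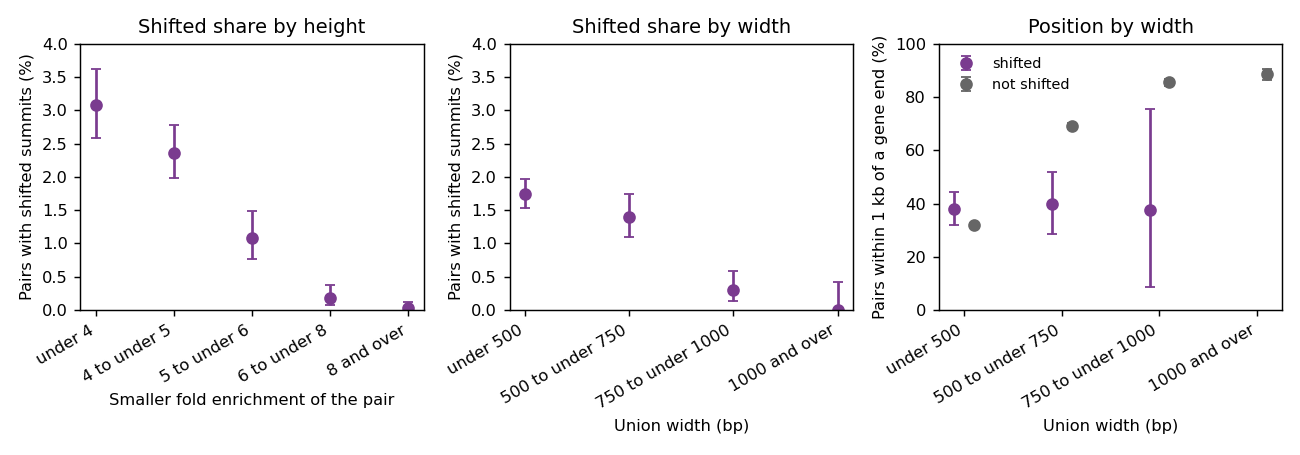
Share of one-to-one pairs that were shifted, by the smaller fold enrichment (left) and by union width in bp (middle), and share of pairs with a summit within 1 kb of a gene end by union width for shifted and other pairs (right); points are percentages and bars exact 95% intervals. The shifted share falls from 3.08% to 0.0221% with height. At gene ends lay 37.9% of shifted against 31.9% of other pairs under 500 bp, and 39.7% against 69.2% from 500 to under 750 bp.

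The HT fold enrichment was the higher one in 191 of 321 pairs (59.5%, 53.9 to 64.9), against 75.6% of all one-to-one pairs. The median log2 ratio of pSHF to HT fold enrichment was -0.11, against -0.29 without a shift. HT was over 1.5 times higher in 56 pairs (17.4%, 13.5 to 22.0) against 22.5% of all one-to-one pairs, and pSHF in 14 (4.36%, 2.40 to 7.21) against 2.44%. In pairs with a union under 500 bp and a smaller fold enrichment under 5, the median log2 ratio was -0.11 with a shift and -0.22 without. In tissue pieces, fewer open cells and less opening per cell cannot be told apart.

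Some shifted pairs nevertheless differed widely in height. *Rbfox1*, a splicing factor gene, had a fold enrichment of 10.8 in HT and 3.77 in pSHF, and the pair nearest *Marcks* 13.3 and 4.76. *Taf1c*, encoding a subunit of the RNA polymerase I selectivity factor, had 12.4 and 5.66, and *Gtf3a*, encoding the 5S rRNA gene factor TFIIIA, 9.93 and 4.67. On the other side, *Pde3a*, a cyclic nucleotide phosphodiesterase gene, had 6.06 in pSHF and 3.29 in HT, *Cmip* 8.22 and 5.21, and a pair on chromosome 14 without a gene within reach 6.79 and 3.29. *Rbfox1*, *Marcks*, *Taf1c*, *Gtf3a*, *Pde3a*, *Cmip* and the chromosome 14 pair were chosen after their values were seen.

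**Figure D4:**
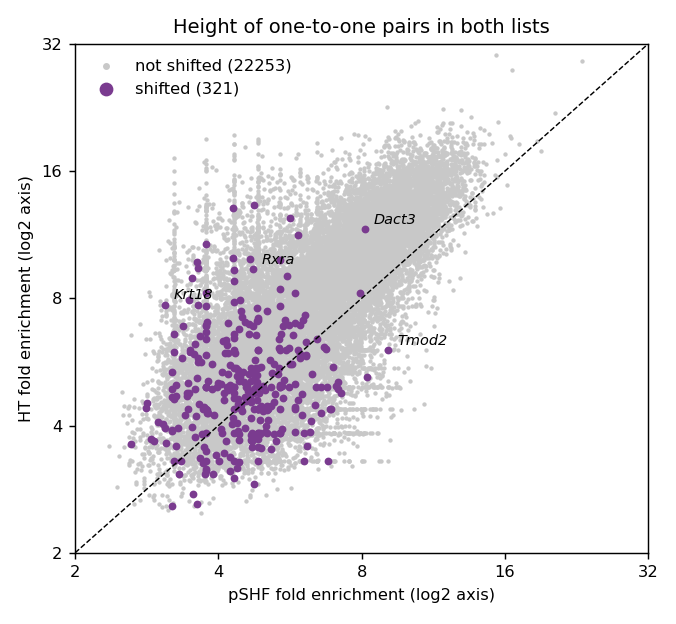
Fold enrichment of the strongest summit in pSHF (x axis) and HT (y axis), both on log2 axes, for 321 shifted pairs (purple) and 22253 other one-to-one pairs (grey); the dashed line marks equal values. Shifted pairs crowd at the low corner, with Dact3 as the 1 pair above 8 in both lists.

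By position, at least 1 summit was within 1 kb of an end of any gene in 123 of 321 (38.3%, 33.0 to 43.9), against 49.0% of all one-to-one pairs. Farther from gene ends, 127 (39.6%, 34.2 to 45.1) lay inside a gene, against 32.3% (31.7 to 33.0) of pairs without a shift. Only the ends of whole genes were counted, so this class includes pairs at start sites within a gene, as at *Hopx* and *Mecom*. The 71 pairs between genes made up 22.1% (17.7 to 27.1), against 18.5% (17.9 to 19.0).

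The order of the shares differed between narrow and wide pairs. With a union under 500 bp, 37.9% of shifted pairs (31.8 to 44.4) and 31.9% of others (31.1 to 32.7) lay at gene ends. From 500 to under 750 bp the shares were 39.7% (28.5 to 51.9) and 69.2% (67.9 to 70.4). Gene-end shares of pairs without a shift rose with width to 88.7% at 1000 bp and over. Those of shifted pairs were 37.5% to 39.7% in every bin that held any. The 37.5%, from 750 to under 1000 bp, was only 3 of 8 pairs (8.52 to 75.5). By height, with a smaller fold enrichment under 4, 35.0% of shifted pairs (27.1 to 43.6) and 32.1% of others lay at gene ends. From 4 to under 5 these were 38.0% (29.8 to 46.6) and 29.5%, and from 5 to under 6 47.4% (31.0 to 64.2) and 40.9%. From 6 to under 8 they were 4 of 8 (15.7 to 84.3) and 63.9%, and at 8 and over 1 of 1 and 82.7%. With a union under 500 bp and a smaller fold enrichment under 5, they were 36.3% (29.8 to 43.2) and 28.9%. The overall share also depended on the pairing: among the 169 pairs shifted after dropping lines whose −log10 q was under 5 it was 54.4%, and among the 1271 pairs shifted by their strongest summits it was 61.5%.

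Start sites with a known strand gave the direction along the gene. Of the 308 shifted pairs on chromosomes for which start sites were used, 92 had their midpoint within 1 kb of one. The pSHF summit was further upstream in 55 (59.8%, 49.0 to 69.9) and the HT summit in 37. In pairs without a shift the pSHF summit was further upstream in 47.2% (46.1 to 48.2). The pSHF summit lay before the start and the HT summit after it in 24 pairs, and the reverse held in 13. The excess on the pSHF side was not kept in every setting. The share was 46.9% (15 of 32 pairs, 29.1 to 65.3) with 50% reciprocal overlap and 42.1% (8 of 19, 20.3 to 66.5) for shifts over 300 bp. Both of these wide intervals include 59.8%. After dropping lines whose −log10 q was under 5 it was 46.7% (35 of 75, 35.1 to 58.6). With an overlap of at least 50 bp it was 57.1% (44 of 77, 45.4 to 68.4).

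Among pairs that straddled the start, *Cacnb1*, encoding a calcium channel beta subunit, had its pSHF summit at -192 bp and its HT summit at 120 bp (fold enrichment 3.89 and 4.88). *Mecom*, a zinc finger factor gene, had them at -59 and 290 bp (5.10 and 4.38), *Cdh9*, a cadherin gene, at -332 and 20 bp (5.39 and 4.39), and *Myo3a*, an unconventional myosin gene, at -200 and 27 bp (5.39 and 9.87). The reverse order was found at *Abcc9*, encoding the sulfonylurea receptor subunit of cardiac potassium channels, with HT at -35 bp and pSHF at 204 bp (5.08 in HT and 7.15 in pSHF). *Nfatc2*, a calcineurin-dependent factor gene, had HT at -338 bp and pSHF at 8 bp (4.60 and 4.11), and *Col8a1*, a collagen gene, HT at -276 bp and pSHF at 73 bp (4.87 and 3.57). These 7 genes were chosen after their values were seen. In no pair did each summit lie within 100 bp of a different start site.

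**Figure D5:**
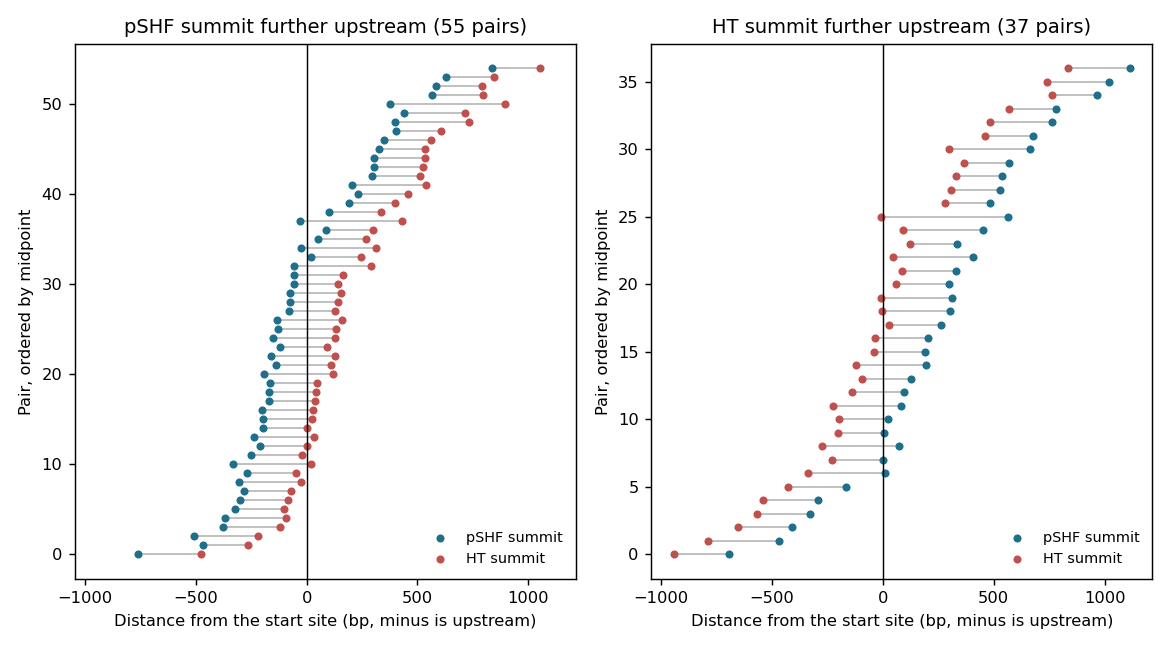
Distance of the pSHF and HT summits from the nearest start site in bp (minus is upstream) for the 92 shifted pairs within 1 kb of one, split by which summit is further upstream; each line is 1 pair. The left panel holds 55 pairs and the right 37, and pairs lie on both sides of the start in both.

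At a distance of 1 kb, a shift could move a summit into or out of reach of a gene end. Both summits were within 1 kb in 108 pairs, only the pSHF summit in 6 and only the HT summit in 9. Gene ends are the ends of whole genes, so start sites inside a gene were not counted here. At *Cyp2j9*, *Ppp1r18*, *Mdga1*, *Slc9a9* and *Srrm4* below, both summits lay within 1 kb of a start site of the same gene. They lay at -140 bp (pSHF) and 110 bp (HT) from it at *Cyp2j9*, and at 408 and 45 bp at *Srrm4*. With the pSHF summit alone in reach, the highest were *Cyp2j9*, a cytochrome P450 gene (fold enrichment 6.06 in pSHF and 3.84 in HT), a pair 3055 bp from *Bmp4* and at the end of another gene (4.20 and 6.99), and pairs nearest *Dkk3* (3.79 and 4.36), *Ppp1r18* (3.47 and 4.78) and *Mdga1* (3.30 and 3.94). With the HT summit alone, they were *Slc9a9*, a sodium-proton exchanger gene (5.94 and 5.91), *Srrm4*, a splicing factor gene (6.12 and 5.84), a pair 7499 bp from *Fkbp4* (5.39 and 4.99), and pairs on chromosomes 2 and 7 without a protein-coding gene within 100 kb (4.77 and 5.24, 4.62 and 4.68).

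Ranked by the smaller of the 2 fold enrichments, the highest shifted pairs after *Dact3* were mostly close to balanced. Such a ranking favours balanced pairs by construction. A pair with 1 higher peak, as nearest *Marcks* (4.76 in pSHF and 13.3 in HT), ranks lower here. *Lancl1*, encoding a glutathione-binding protein and 22870 bp away, was nearest to a pair of 7.96 in pSHF and 8.22 in HT with a shift of 253 bp. The pair nearest *Ube2u*, a ubiquitin-conjugating enzyme gene, had 6.46 and 6.41, *Mpv17l* 6.68 and 6.15, *Ivd*, an enzyme gene of leucine breakdown, 6.12 and 6.31, and *Ankrd29* 6.09 and 7.29. The pair nearest *Asb13*, 55483 bp from it, had 6.73 and 6.06, and *Clec16a* 6.02 and 7.13, where a pSHF interval of 966 bp with 3 summits met an HT interval of 230 bp. *Mpv17l* had a smallest distance of 203 bp, while its strongest summits were 271 bp apart.

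Shifted pairs were scattered over genes. The 295 pairs with a protein-coding gene within 100 kb had 294 different nearest genes, and *Ptprj*, a receptor tyrosine phosphatase gene, was the 1 gene with 2 pairs (shifts of 217 and 208 bp). No gene had 3. By chromosome, from 0.833% of one-to-one pairs (chromosome 4) to 2.06% (chromosome 16) were shifted. Another pSHF peak lay within 1 kb of 87 shifted pairs (27.1%, 22.3 to 32.3) and another HT peak of 89 (27.7%, 22.9 to 33.0), against 21.3% for each list without a shift.

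Of 20 gene lists covering signaling, heart and other cell types, 10 had a shifted pair and 10 had none. In all, 14 of the 556 one-to-one pairs nearest a listed gene were shifted (2.52%), against 1.42% of all pairs. In each of the 14, the HT fold enrichment was the higher one, as in 59.5% of all shifted pairs and 75.6% of all one-to-one pairs. Neither summit lay inside the other interval in 8, exactly 1 in 4 and both in 2.

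Signaling genes came from several pathways. In Hedgehog signaling, in which a lipid-modified ligand relieves repression of Smoothened and activates GLI factors, 2 of 37 pairs were shifted. One lay inside *Gli2*, an effector of the pathway, at chr1:118904988-118905332, with a shift of 204 bp (3.26 in pSHF and 3.58 in HT). The other lay inside *Disp1*, which releases the ligand from the cell, with 266 bp (4.51 and 5.36). Recovered pile-ups at these summits were 7 and 7 reads at *Gli2* and 9 and 10 at *Disp1*. In the Bmp and Tgf-beta list 2 of 56 were shifted: a pair 3055 bp from *Bmp4*, a ligand gene, with 216 bp (4.20 and 6.99), and one 28741 bp from *Id2*, encoding an inhibitor of bHLH factors, with 258 bp (3.79 and 7.03).

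The Wnt list had 1 of 49, at *Sfrp5*, encoding a secreted Wnt inhibitor, where the HT summit lay at -224 bp in the window printed above and the pSHF summit at 80 bp (4.73 in pSHF and 5.39 in HT). The retinoic acid list had 1 of 28, inside *Rxra*, a nuclear receptor gene, at chr2:27740129-27740687, with both summits in both intervals, 240 bp apart (4.73 and 9.38). None of 36 pairs of the Fgf list (up to 8.33%) and none of 26 of the Notch list (up to 11.5%) was shifted.

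Among heart genes, shifted pairs lay at 2 regulators and an ion channel. Of 70 pairs of cardiac transcription factor genes 2 were shifted. One lay inside *Meis1*, a TALE homeobox gene, with 214 bp (3.77 and 6.68), and one 1583 bp from *Tbx2*, a T-box repressor of the atrioventricular canal, 1 bp over the threshold (2.83 and 4.52). Of 36 pairs of ion handling genes 1 was, inside *Ryr2*, the calcium release channel of the sarcoplasmic reticulum, with 213 bp (5.80 and 6.99). None of 23 sarcomere pairs (up to 13.0%) and none of 32 pairs of second heart field progenitor genes (up to 9.38%) was shifted, and with so few pairs a share like that of all pairs was not detectable.

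Genes of mesenchyme, epithelium and blood made up the rest, with 1 of 19 pairs of the visceral mesenchyme list, 1 of 13 of the somite list and 1 of 20 of the endoderm list. *Pdgfra*, a growth factor receptor gene of mesenchyme, had a shift of 211 bp (2.62 and 3.62), the lowest pSHF fold enrichment of any shifted pair. *Twist1*, a bHLH factor of mesenchyme, had its summits 206 bp (pSHF) and 540 bp (HT) after the start (3.40 and 4.24). A pair 2546 bp from *Krt18*, a keratin gene of simple epithelia, had 232 bp (3.08 in pSHF and 7.74 in HT). Endoderm markers had gene-end peaks at 4 of 4 in pSHF and 3 of 4 in HT, and their part in this pair was not tested. The anterior Hox, endothelial, epicardial, neural, cell cycle and housekeeping lists had none of 13, 38, 16, 15, 34 and 19 pairs.

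Of the erythroid list, *Hba-x* had a shifted pair. At *Hba-x*, the embryonic zeta-globin gene, the HT interval chr11:32276321-32276714 held its summit 94 bp before the start, in the window printed above, and the pSHF interval chr11:32276640-32276797 held its summit 126 bp after it. The fold enrichment was 5.19 in HT and 3.61 in pSHF, with pile-ups of 31 and 7 reads. Peaks at gene ends of the blood markers were found for *Hbb-y* and *Klf1* in HT, and at 0 of 3 in pSHF; their part in this pair was not tested.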

How the data were processed

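ATAC-seq of pSHF and HT (3 samples each) is represented by 1 deposited peak list per tissue, and the sources used here do not say whether the authors pooled samples first. Bowtie2 2.3.2, SAMtools 1.5, Picard, MACS2 2.1.1 and build mm10 are named per the submitters' processing notes. The authors' lists give a score, a fold enrichment (ratio) and −log10 p and q per summit, so the depth per sample is unknown. The deposited score was not used.

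Lines of equal interval (60223 in HT, 58887 in pSHF) were merged with all summits kept. Peaks overlapping one to one were paired, and the shift was the smallest distance between summits. Height, place and class used the summit of highest fold enrichment. Pile-up was recovered as the whole number whose Poisson p matched the authors' −log10 p within 0.01, with the fold enrichment taken as (pile-up + 1)/(background + 1), which worked at all 22574 pairs. This formula is an assumption about the caller.

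Genes came from RefSeq GRCm38.p6, by the nearest protein-coding gene body within 100 kb of the midpoint between summits, and 32851 start sites with strand from its promoter table. A gene so named need not be regulated by the site. Named were the 10 largest shifts, the 10 highest by the smaller fold enrichment, 3 pairs on either side of 200 bp, up to 3 genes per list, genes with 3 or more pairs and 5 pairs each way at the 1 kb limit. Names chosen otherwise are marked, and 1 pair that the rule names is not reported here. The pairs and the 20 lists were chosen with earlier results of these data known. The motif search planned within 50 bp of each summit was not run, as no genome sequence was used here, and only promoter windows were searched. Python 3.11.15, pandas 2.3.3, numpy 2.4.6 and scipy 1.17.1 were used, and the pairing was tested on simulated data. Alternatives covered the threshold, the summit kept, the overlap, the −log10 q, the one-to-one rule and the gene assignment.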

Additional observations from a re-analysis of the deposited data

How the results depend on the processing

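No paired analysis was possible because each tissue has 1 list and no value per replicate, and for the same reason no replicate could be left out. Of 67 values recomputed, 23 stayed within the counting interval (for counts, within 1.5 times) and 44 moved; the cause was not tested, beyond fewer or more pairs passing by construction.

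The number of shifted pairs was 321 as reported, 2984 over 100 bp, 53 over 300 bp, 2 over 500 bp, 1271 by strongest summits, 92 with 50% reciprocal overlap and 169 with lines at a −log10 q of at least 5. All 321 were among the 1271, but 77 were among the 92 and 45 among the 169. The median shift was 126, 346, 514.5, 270 and 253 bp over 100, 300 and 500 bp, by strongest summits and at the −log10 q of 5. The share within 1 kb of a gene end was 47.2% over 300 bp, 50% over 500 bp, 61.5% by strongest summits and 54.4% at the −log10 q of 5, and 29.9% and 47.7% within 500 and 2000 bp. The share with neither summit inside the other interval was 27.5% over 100 bp, 14.9% by strongest summits, 14.1% with reciprocal overlap, 38.6% with 50 bp of overlap and 18.3% at the −log10 q of 5. The share with the pSHF summit nearer to the gene end was 47.2%, 60.9% and 100% over 100, 300 and 500 bp, 45.7% by strongest summits, 43.7% with reciprocal overlap and 44.7% at the −log10 q of 5. The median log2 ratio was -0.21, -0.22 and -0.44 over 100, 300 and 500 bp, -0.23 by strongest summits and -0.20 with reciprocal overlap. Pairs nearest a listed gene numbered 96, 2 and 0 over 100, 300 and 500 bp, 27 by strongest summits, 6 with reciprocal overlap and 5 at the −log10 q of 5. The share at start sites with the pSHF summit further upstream, tried after seeing the data, was 48.7% over 100 bp, 42.1% over 300 bp, 45.4% by strongest summits, 46.9% with reciprocal overlap and 46.7% at the −log10 q of 5. It was 57.1% with 50 bp of overlap.

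Of the 45 pairs named by rule, 36 were still paired with 50 bp of overlap, 14 with reciprocal overlap and 15 at the −log10 q of 5.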

Other observations

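Overlaps that were not one to one gave 8 further groups in which no pSHF summit lay within 200 bp of an HT summit, of 3394 such groups (0.236%). The largest distance was 252 bp, at a gene end of *Alg9*, an enzyme gene of protein glycosylation, with 2 pSHF peaks against 1 HT peak (fold enrichment 5.14 and 6.68). *Hhat*, encoding the acyltransferase that adds palmitate to Hedgehog ligands, had 1 pSHF peak against 2 HT peaks at a gene end, 228 bp apart (3.52 in pSHF and 5.55 in HT). *Car10* had 228 bp (6.49 and 10.6), *Bach2*, a transcriptional repressor gene, 230 bp (3.92 and 4.09), and *Pde4d*, a cyclic AMP phosphodiesterase gene, 202 bp (4.82 and 6.37). *Stx16* had 215 bp, *Rtn1* 210 bp and *Nol4l* 205 bp. These groups were wide, 787 bp at the median over all 3394.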
